A study of Mus musculus with 18 samples.

Results

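IFNγ and IFNα were compared directly in 6 arrays of newly transcribed RNA from NIH-3T3 cells, an established line of mouse fibroblasts. They are all the arrays labelled as IFNγ without CHX and IFNα without CHX, 3 of each, out of 18 arrays and 6 treatments in the series. In both groups the cells had first stood for 15 min in DMSO, the solvent of cycloheximide (CHX, an inhibitor of protein synthesis), and then received 100 U/ml of IFNγ or 100 U/ml of IFNα for 1 h. 4-thiouridine (4sU) was present at 500 µM from 30 to 60 min of IFN treatment, so that only RNA made in that window was tagged and purified. Mock cells without IFN (3 arrays) give the basal level. The 3 IFNγ and 3 IFNα arrays with CHX in place of DMSO give the same comparison in other samples. The labels call the 3 arrays of a treatment replicates, and both IFNs were tested at a single dose and time in a single line. A unit of IFN is a unit of biological activity, so that equal units do not set equal molar amounts.

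IFNα, a type I IFN, binds the receptor of IFNAR1 and IFNAR2 and acts through the kinases JAK1 and TYK2, mainly on a complex of STAT proteins with IRF9 that recognises the IFN-stimulated response element (ISRE). IFNγ, the type II IFN, binds the receptor of IFNGR1 and IFNGR2 and acts through JAK1 and JAK2, mainly on STAT dimers that recognise the gamma-activated sequence (GAS). Many antiviral genes carry an ISRE, whereas genes of macrophage activation, antigen presentation and chemokine production are classical targets of IFNγ.

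Each value below is the deposited linear intensity of a probe set, and each difference is IFNγ minus IFNα on the log2 scale, with 3 arrays per group. A probe set was called when the difference was at least 2-fold with a Benjamini-Hochberg adjusted p under 0.01 from limma, fitted over all 27773 probe sets tested. The p-values rest on the spread between arrays of a treatment, estimated over all 18 arrays of the 6 treatments together. In RNA from whole cultures, fewer transcribing cells and less RNA per cell cannot be told apart. All 14 fibroblast markers were strong, with a median intensity of 4030 in the IFNγ group and 3870 in the IFNα group. By contrast 7 of 8 leukocyte markers, 6 of 8 epithelial markers and 8 of 8 endothelial markers stayed on all 6 arrays below the lowest maximum (8.5) of the probe sets tested. Pearson's r between arrays of a group, over all probe sets tested, lay between 0.982 and 0.992 for IFNγ and between 0.983 and 0.995 for IFNα.

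With IFNγ, 305 probe sets (203 genes) were higher than with IFNα and 104 (77 genes) were lower, 1.1% and 0.374% of those tested. Values of the 3 IFNγ and 3 IFNα arrays did not overlap for any of these 409 probe sets, against 13.3% non-overlapping among all tested. The 409 were chosen by the difference between the same arrays, so this separation is no further support for the calls. The direct contrast was asymmetric, with 74.6% of the calls on the IFNγ side. Differences above 8-fold numbered 28 on the IFNγ side and 15 on the IFNα side, and those above 16-fold 7 and 4. The median called difference was 1.67 for the higher and -1.53 for the lower probe sets, while the median over all probe sets was -0.0137. Fitting the 6 arrays alone left 176 higher and 45 lower probe sets, and without IFNα replicate 2 the lower ones numbered 69. Lists of genes below count 1 probe set a gene, the one with the highest mean over all arrays, and on this count 184 of 12121 genes (1.52%) were higher with IFNγ and 62 (0.512%) lower.

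**Figure D1:**
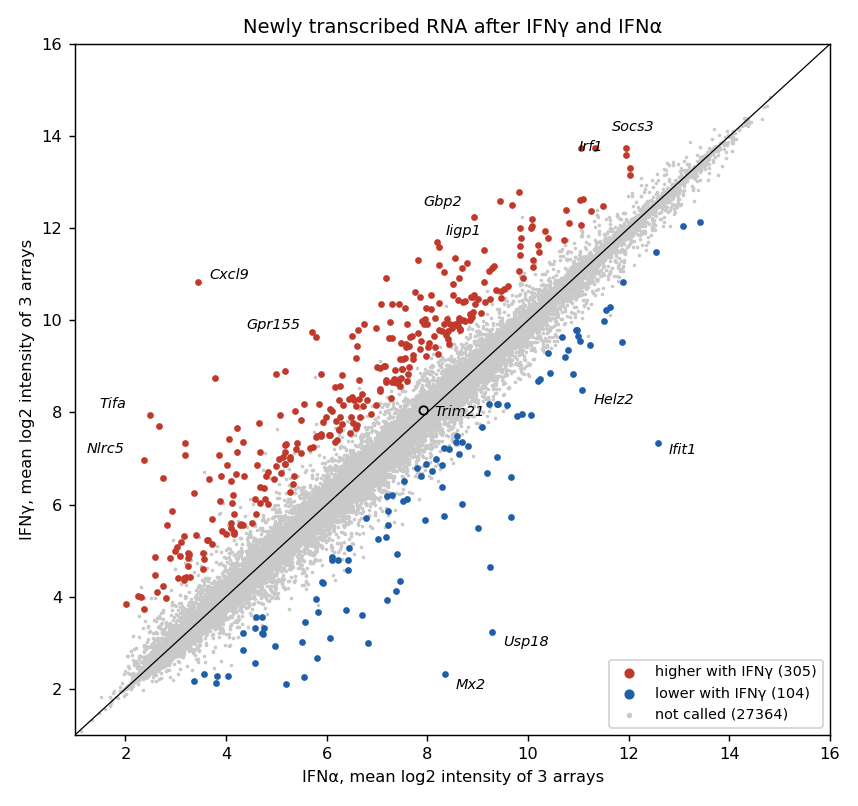
Mean log2 intensity of 3 IFNγ arrays (vertical axis) against 3 IFNα arrays (horizontal axis) for each probe set tested, with the line of equality; red points are the 305 called higher and blue points the 104 called lower with IFNγ. *Cxcl9* lies furthest above the line and *Usp18* furthest below it, while *Trim21* (open circle) lies on it.

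The position of the mock level divided the called probe sets. Of the 305 higher with IFNγ, 258 had an IFNα mean less than 2-fold from the mock mean and an IFNγ mean at least 2-fold above it. Both IFNs stood at least 2-fold above mock for 26, neither was 2-fold away for 20, and for 1 only IFNα was, below mock. The 104 lower probe sets were more mixed. IFNα stood at least 2-fold above mock with IFNγ less than 2-fold away for 35, and both stood above it for 22. For 32 probe sets IFNα was less than 2-fold from mock and IFNγ at least 2-fold below it. Neither was 2-fold away for 14 and both were below mock for 1. These counts describe group means, and the mock arrays are common to both. By the test against mock, 394 probe sets (1.42%) were higher and 58 (0.209%) lower with IFNγ, and 128 (0.461%) higher and 11 (0.0396%) lower with IFNα.

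Stretches of promoter with a match to the GAS core or the ISRE core are shown for genes on both sides of the comparison, to set the letters beside the values that follow. They are RefSeq sequences of build GRCm38.p6, from windows of 250 bases before to 50 bases after a gene's start, printed 5′ to 3′ in the direction of the gene with the match in capitals. The GAS core was searched as TTC and GAA with any 3 bases between them, which reads the same on both strands. The ISRE core was searched as GAAA and GAAA with any 2 bases between them, or on the other strand as TTTC and TTTC likewise. The motifs can overlap. The stretches are chosen examples, and other named genes depart from them. *Gbp2*, *Irgm1* and *Socs1*, higher with IFNγ, hold an ISRE core but no GAS core in the window. *Oas1a*, lower with IFNγ, holds both. The first 4 sequences hold a GAS core and belong to genes higher with IFNγ.
*Irf1* (chr11:53769914-53769942, plus strand): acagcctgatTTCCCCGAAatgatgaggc
*Socs3* (chr11:117969502-117969530, minus strand): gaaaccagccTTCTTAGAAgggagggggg
*Nod1* (chr6:54971836-54971864, minus strand): ggctggctgcTTCCAGGAAcctcctatgg
*Samhd1* (chr2:157135313-157135341, minus strand): acaccaccctTTCGGAGAAacacaagggc
The next 4 hold an ISRE core and belong to genes lower with IFNγ.
*Ifit1* (chr19:34640775-34640804, plus strand): caggcttcagTTTCACTTTCcagtctcagt
*Ifit3* (chr19:34583363-34583392, plus strand): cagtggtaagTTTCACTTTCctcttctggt
*Rsad2* (chr12:26456553-26456582, minus strand): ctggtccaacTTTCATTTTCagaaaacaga
*Slfn8* (chr11:83020839-83020868, minus strand): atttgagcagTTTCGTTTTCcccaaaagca
In 3 named genes both cores lie side by side. *Igtp* and *Irgm2*, of the immunity-related GTPases, were higher with IFNγ, whereas *Ifitm3* had no called difference.
*Igtp* (chr11:58199507-58199535, plus strand): ccatTTCTAGGAActGAAACTGAAAgctg
*Irgm2* (chr11:58214898-58214926, plus strand): ccatTTCCAGGAActGAAACTGAAAgctg
*Ifitm3* (chr7:141010719-141010746, minus strand): tcagGAAAAGGAAAcTTCTGAGAAaccg
*Trim21*, whose level did not differ detectably between the IFNs, also holds an ISRE core.
*Trim21* (chr7:102565450-102565479, minus strand): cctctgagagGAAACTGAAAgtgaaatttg

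Of the 203 genes higher with IFNγ, 156 had a RefSeq window, and 31 of these (19.9%) held a GAS core and 10 (6.41%) an ISRE core. Of the 77 genes lower with IFNγ, 61 had a window, and 7 (11.5%) held a GAS core and 14 (23.0%) an ISRE core. Among the 9821 tested genes with a window the shares were 8.18% for the GAS core and 3.7% for the ISRE core, and among all 27025 genes with a window 9.55% and 3.99%. A match of letters is a description of the window and not evidence of binding.

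Genes on the IFNγ side were led by *Cxcl9*, a chemokine that attracts activated T cells through CXCR3. Its intensity was 2099, 1782 and 1606 with IFNγ, against 10, 13.1 and 10 with IFNα and 5.8, 7.9 and 6.1 in mock cells, a difference of 7.38 (SE 0.21, limma adjusted p = 3.78e-11). The IFNα and mock values lay far below every IFNγ value. The other probe set of *Cxcl9* was not called (0.97). Of 3 CXCR3 ligands tested, *Cxcl9* was the 1 called. *Cxcl10* read 6399, 5230.4 and 4701 with IFNγ, against 3022, 2846 and 2130.5 with IFNα and 70.4, 49.1 and 35.6 in mock cells. Its groups did not overlap, but the difference of 1.03 had a 95% interval of 0.12 to 1.95 and missed the threshold (limma adjusted p = 0.445). *Cxcl11* stayed at 8.8 to 14.1 with IFNγ, against 8.7 to 9.1 with IFNα, near background in both.

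Several further genes were near background with IFNα and in mock cells and clearly measured with IFNγ. *Tifa*, an adaptor of NF-κB signalling, read 280.4, 215 and 247 with IFNγ and 5.9, 5.9 and 5.1 with IFNα (difference 5.45, SE 0.31). *Nlrc5*, the transactivator of MHC class I genes, read 116, 157 and 106 with IFNγ and 5.1, 5.4 and 5 with IFNα (difference 4.59, SE 0.15). *BC023105* read 185, 219 and 220.4 with IFNγ and 6.8, 6.3 and 5.9 with IFNα (difference 5.04). For these 3 genes the IFNα values lay below 8.5, so that the size of the fold depends on the background estimate. *Ccl11*, which encodes the eosinophil attractant eotaxin, read 156, 125 and 128 with IFNγ and 9.5, 8.8 and 9.1 with IFNα (difference 3.89, SE 0.20). Adjusted p in limma was at most 9.85e-08 for these 4 genes.

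Others had signal in the IFNα group as well. *Nod1*, a cytosolic receptor of bacterial peptidoglycan, read 521, 419 and 433 with IFNγ and 35.4, 36.9 and 24.6 with IFNα (difference 3.84, SE 0.20). *Gpr155* read 821, 863 and 887 with IFNγ, against 73.3, 39.9 and 48.1 with IFNα and 74.1, 86.2 and 60 in mock cells (difference 4.04, SE 0.20). *Il18rap*, a subunit of the IL-18 receptor, read 777, 916 and 987 with IFNγ and 85.5, 105 and 107 with IFNα (difference 3.17). None of these 3 genes was called between IFNα and mock. The apolipoprotein gene *Apol6* (4.96), the homeobox gene *Hoxd3* (3.44) and the transglutaminase gene *Tgm2* (3.38) completed the 15 largest differences together with *Samhd1*, *Iigp1*, *Gbp2* and *Sting1*, taken up with their families below. For *Tgm2*, 4 of 5 probe sets were called.

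The largest differences on the opposite side were those of *Usp18* and *Mx2*. *Usp18*, the isopeptidase that removes ISG15 and dampens the type I receptor, read 9.4, 9 and 9.8 with IFNγ, against 659, 650.3 and 578 with IFNα and 6.5, 6.5 and 6.2 in mock cells (difference -6.06, SE 0.15, limma adjusted p = 9.56e-12). *Mx2*, a dynamin-like antiviral GTPase, read 5, 5 and 4.9 with IFNγ, against 326, 346 and 305 with IFNα and 5.1, 4.9 and 4.9 in mock cells (difference -6.03, SE 0.08, limma adjusted p = 5.67e-15). The IFNγ and mock values of *Mx2* overlapped, all below 8.5. *Mx1*, its paralogue, was dimmer, at 8.1, 8.1 and 7.9 with IFNγ and 48, 43.5 and 45.1 with IFNα (difference -2.50). The IFNγ values of *Mx1*, *Oasl1*, *Ifih1* and *Irf7* likewise lay below 8.5, where folds depend on the background estimate. Outside the lists, the 15 largest negative differences included *Tent5a*, a poly(A) polymerase gene, at 12.5, 13.3 and 13.1 with IFNγ and 87.8, 89.9 and 74.8 with IFNα (-2.69), and the helicase gene *Helz2* (-2.59).

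In the list of IFIT and OAS genes, which bind foreign RNA or make the activator of RNase L, 6 of 10 members tested were lower with IFNγ and 0 higher. The median difference of the list was -2.23. *Ifit1* read 175, 173 and 139 with IFNγ, against 6470.2, 6037 and 5933 with IFNα and 52.1, 58.3 and 50.1 in mock cells (difference -5.25, SE 0.19). Here IFNγ itself was called above mock, yet lay far below IFNα. *Ifit3* read 29.3, 23.5 and 22.8 with IFNγ and 626, 673 and 522 with IFNα (difference -4.59, SE 0.27), and its IFNγ values lay near the mock values of 21.1, 16.4 and 21.3. *Oas1a* (-3.27), *Oasl1* (-3.09), *Oasl2* (-2.30) and *Oas1b* (-2.17) were the other calls, and that of *Oas1b* was lost when only the 6 arrays were fitted (limma adjusted p = 0.0379). *Oasl2* was raised by IFNγ too, at 49.9, 53.2 and 48.8, against 225, 239 and 287 with IFNα and 5.5, 4.7 and 6 in mock cells. For *Ifit2* a single probe set was tested, with a high mock level and a difference of -0.77, less than 2-fold.

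Of 17 direct antiviral effectors, 7 were lower with IFNγ and 1 was higher, with a list median of -1.14. The lower ones included *Rsad2*, which encodes viperin, at 8.5, 9.2 and 8.3 with IFNγ and 77.5, 73.2 and 52.9 with IFNα (difference -2.95, SE 0.14). The IFNγ values of *Rsad2* were near background, where folds depend on the background estimate. Other probe sets of *Rsad2* gave smaller differences, of -1.23 and -0.01. *Tor3a* (-2.68) and *Rtp4* (-2.07) were raised by both IFNs and more by IFNα. The exception was *Samhd1*, a dNTP hydrolase that restricts retroviruses, at 1949, 2042 and 1835 with IFNγ and 202, 133 and 112 with IFNα (difference 3.75, SE 0.28, limma adjusted p = 1.06e-06). Of its 5 probe sets, 3 were called in that direction. *Ifitm3*, which blocks entry of enveloped viruses, read 7977, 6385 and 6558 with IFNγ, against 6366, 6625 and 6904 with IFNα and 2305, 1657 and 2499 in mock cells, overlapping values with a difference of 0.07 (95% interval -0.41 to 0.54).

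Of 11 sensors of nucleic acids tested, 3 were lower with IFNγ and 1 was higher. The cytosolic RNA sensors *Ddx58* (RIG-I) and *Ifih1* (MDA5) and the endosomal receptor *Tlr3* were lower with IFNγ, by differences of -3.49, -3.14 and -1.58. *Ddx58* read 43.6, 48.4 and 44.1 with IFNγ, against 636, 460.2 and 455 with IFNα and 19.6, 25 and 21.8 in mock cells, and all 3 of its probe sets were called. *Tlr3* lost the call when only the 6 arrays were fitted (limma adjusted p = 0.0121). *Sting1*, the adaptor of cytosolic DNA sensing, was higher with IFNγ, at 1149, 836 and 567, against 129, 86.2 and 65.9 with IFNα (difference 3.18, SE 0.51, limma adjusted p = 0.00169). The call of this probe set was lost without IFNγ replicate 1, IFNα replicate 2 or IFNα replicate 3 (limma adjusted p = 0.0102 to 0.013). It was also lost when only the 6 arrays were fitted (0.0141). Another probe set of *Sting1* was called higher with IFNγ too (difference 2.95, SE 0.23, limma adjusted p = 1.63e-06). *Ifi204* (95% interval -0.04 to 0.70) and *Ifi207* (-0.25 to 0.54), of the family of DNA-binding p200 proteins, were raised by both IFNs, and their intervals exclude a 2-fold difference. The other 5 members were not called.

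Smaller groups on the IFNα side were the IFN-induced PARPs, with 2 of 5 lower with IFNγ, the TRIM family, with 3 of 10, and the Schlafen family, with 1 of 3. None of these lists had a member called higher. With the mean over all probe sets of a gene, 1 PARP, 1 TRIM and 1 Schlafen gene were lower. The Schlafen gene was *Slfn8*, at 32.6, 33.6 and 25.7 with IFNγ and 218, 180.0 and 119.8 with IFNα (difference -2.46). The calls of *Slfn8*, *Parp14*, *Trim30d* and *Trim12c* were lost when only the 6 arrays were fitted (limma adjusted p = 0.0108 to 0.0812). *Parp12* read 280.2, 270.0 and 316 with IFNγ and 758, 759 and 799.8 with IFNα (difference -1.42), while *Parp9* just missed the 2-fold minimum (95% interval -1.33 to -0.66, limma adjusted p = 0.00138). *Parp14* just passed it (-1.01) and fell short without IFNγ replicate 3 (-0.94) or IFNα replicate 1 (-0.89). *Trim30a*, a feedback regulator of TLR signalling, read 246, 248 and 239 with IFNγ and 954, 799.6 and 893 with IFNα (difference -1.85). *Trim30d* (-1.31) and *Trim12c* (-1.25) lost the call when IFNγ replicate 1 or 3 or IFNα replicate 2 was left out (limma adjusted p = 0.0111 to 0.0183), and *Trim12c* also without IFNα replicate 1 (0.0166). In contrast *Trim21*, a cytosolic antibody receptor, read 307, 260.5 and 229 with IFNγ, against 300.5, 226 and 212 with IFNα and 8.1, 7.7 and 7.8 in mock cells. Both IFNs raised it from background and the difference was 0.12 (95% interval -0.29 to 0.53). *Trim25*, the ubiquitin ligase of RIG-I, was also raised by both, with a difference of -0.31 (95% interval -0.56 to -0.07).

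**Figure D2:**
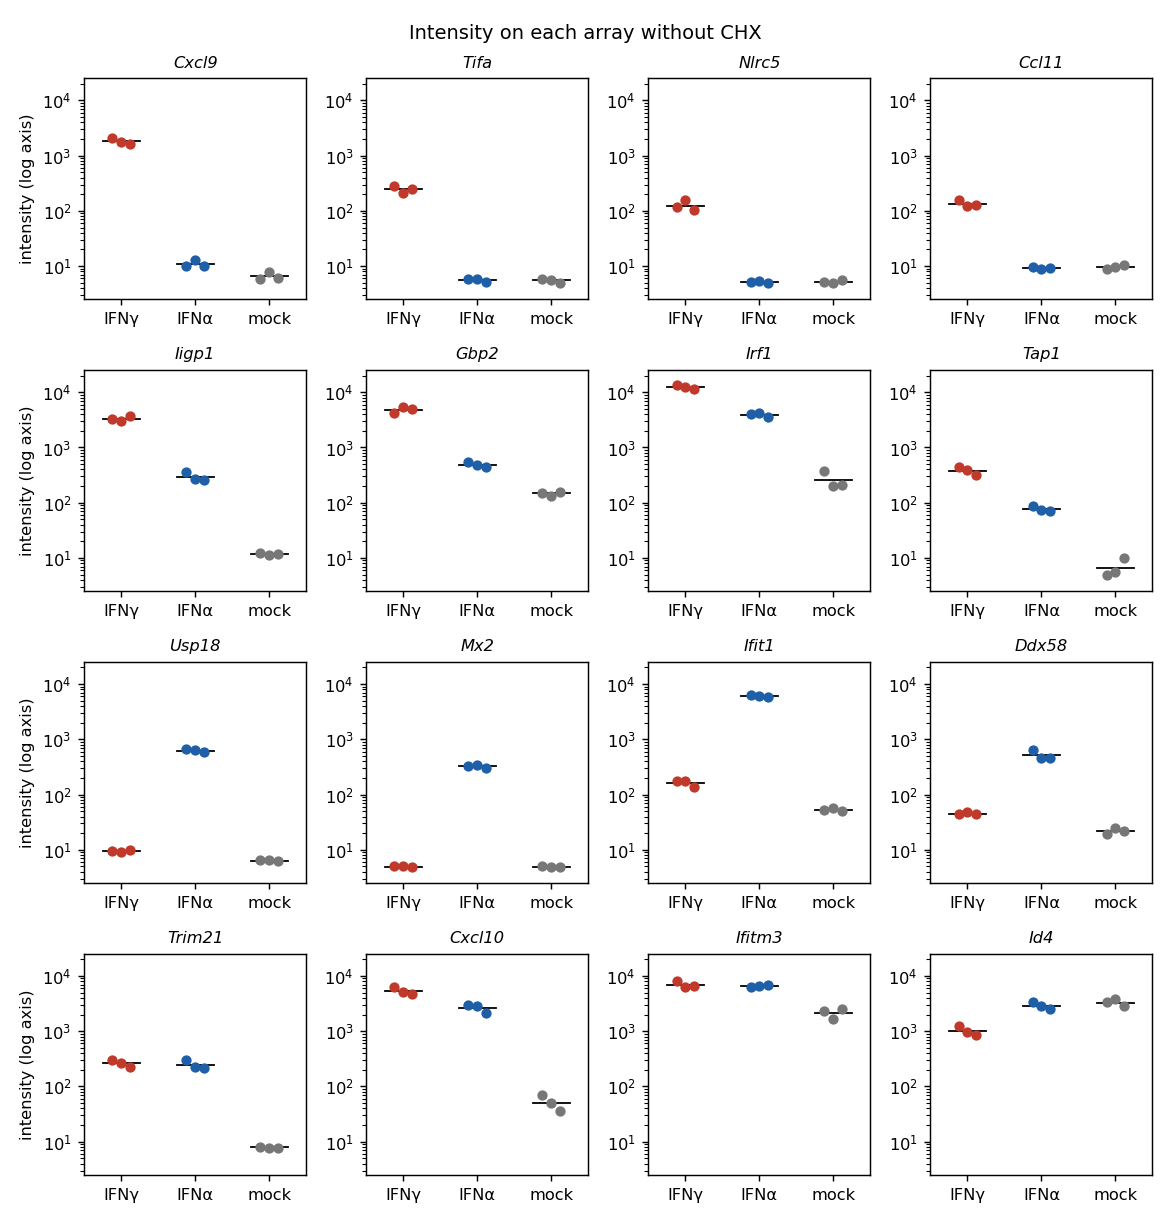
Intensity on each array (log axis) of 16 named genes with IFNγ (red), IFNα (blue) and mock (grey), 3 arrays each without CHX; bars are means of the log2 values. The top row shows genes near mock with IFNα, the second row genes raised by both and more by IFNγ, the third row genes higher with IFNα, and the bottom row genes with no called difference except *Id4*, which was lower with IFNγ.

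The GTPases of cell-autonomous immunity, which attack the vacuoles of intracellular pathogens, were in large part higher with IFNγ. All 6 immunity-related GTPases tested were higher with IFNγ, with a median difference of 2.28. *Iigp1* read 3220.2, 3053 and 3750.1 with IFNγ, against 356, 267 and 262 with IFNα and 12.2, 11.4 and 11.6 in mock cells (difference 3.51, SE 0.17, limma adjusted p = 1.72e-08). *Irgm2* read 3969, 3732 and 4215 with IFNγ, against 1547, 1301 and 1078 with IFNα and 9, 7.6 and 9.5 in mock cells (difference 1.62, SE 0.14). The step from mock to either IFN was much larger for *Irgm2* than the step between the IFNs. *Igtp* (1.97), *Ifi47* (2.60) and *Irgm1* (1.58) followed the same order of groups, whereas *Gm4951* was mainly raised by IFNγ, at 96, 105 and 92.7, against 18.3, 15.5 and 11.8 with IFNα and 10, 10.6 and 10.9 in mock cells. *Irgm1* lost the call when any 1 of the 6 arrays was left out (limma adjusted p = 0.0173 to 0.0342), and *Ifi47* when only the 6 arrays were fitted (0.0113).

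Of 6 guanylate-binding proteins tested, 3 were higher with IFNγ and 0 lower. *Gbp2* read 4269, 5418 and 4905 with IFNγ, against 544, 483 and 440.1 with IFNα and 153, 134 and 157 in mock cells (difference 3.31, SE 0.25). *Gbp6* (2.81) and *Gbp7* (2.28) started near background in mock cells and were called with both of their probe sets. The probe set shown for *Gbp2* is of a type that can share probes with related genes, and its other probe set gave a difference of 3.35. *Gbp3* departed from them, at 485, 534 and 438 with IFNγ, against 319.7, 413 and 334 with IFNα, close values that did not overlap. Its difference was 0.45 with a 95% interval of -0.25 to 1.15.

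Among genes of MHC class I presentation, 3 of 12 were higher with IFNγ and 0 lower. Besides *Nlrc5* these were the peptide transporter genes *Tap1* and *Tap2*. *Tap1* read 442, 397 and 316 with IFNγ, against 86.2, 74.8 and 71.7 with IFNα and 5, 5.6 and 9.9 in mock cells (difference 2.30, SE 0.22). *Tap2* had a difference of 1.27 and lost the call without IFNγ replicate 1 or 3 or IFNα replicate 1 or 2 (limma adjusted p = 0.0192 to 0.0278), and when only the 6 arrays were fitted (0.0342). *B2m*, the light chain of class I molecules, was raised by both IFNs with no called difference (0.23, 95% interval -0.15 to 0.61). *Psmb9*, a catalytic subunit of the immunoproteasome, was the 1 member of its list of 4 called, at 186, 135 and 152 with IFNγ and 41.3, 40.2 and 28.1 with IFNα (difference 2.12). In that list *Psmb8* was near background, at mean log2 intensities of 3.44 with IFNγ and 3.48 with IFNα. *Psmb10* (0.54, 95% interval 0.30 to 0.78) and *Psme1* (0.60, 0.22 to 0.99) were not called. None of 14 constitutive proteasome genes was called, and their differences lay between -0.27 and 0.17. None of the 4 genes of MHC class II presentation tested was called, of 8 with a probe set. *H2-Ab1* and *Ctss* were near background with both IFNs, at mean log2 intensities of 2.74 to 2.80. *Ifi30* had signal, with means of 7.47 with IFNγ and 7.45 with IFNα.

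Of 6 IFN regulatory factors tested, 1 was higher and 1 lower with IFNγ. *Irf1*, a transcription factor induced by both IFNs, read 13276, 12456 and 11533 with IFNγ, against 4070.0, 4151 and 3580.4 with IFNα and 376, 204 and 213 in mock cells (difference 1.66, SE 0.24, limma adjusted p = 0.000674). *Irf7*, which amplifies the type I response, went the other way, at 5.8, 6 and 5.8 with IFNγ, against 17.9, 34.9 and 22 with IFNα and 6, 5.7 and 5.6 in mock cells (difference -2.03). It was dim, and its call was lost without IFNα replicate 2 (limma adjusted p = 0.0117), in the fit of the 6 arrays alone (0.0202) and on the log2(value + 16) scale (-0.88). *Irf9*, the DNA-binding partner of STAT proteins in the ISRE-binding complex, was raised by both, with overlapping values (difference -0.46, 95% interval -1.10 to 0.19). *Irf2*, *Irf3* and *Irf5* were not called, with differences of 0.69, 0.07 and 0.11.

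Of 12 receptors, JAKs and STATs tested, 2 were higher with IFNγ. *Stat3*, the STAT of the IL-6 family, read 5456, 5416 and 5241 with IFNγ, against 1899, 1741 and 1591 with IFNα and 1774, 1470.2 and 1586 in mock cells (difference 1.63, SE 0.14, limma adjusted p = 4.27e-06), and 3 of its 4 probe sets were called. *Ifnar2*, a subunit of the receptor of IFNα itself, read 922, 1218 and 1039 with IFNγ and 515, 471 and 410.2 with IFNα (difference 1.18). It lost the call without IFNγ replicate 2 or IFNα replicate 3 (limma adjusted p = 0.0108 each), and when only the 6 arrays were fitted (0.0175). *Stat2* varied too widely between arrays to compare, at 203, 107 and 440.2 with IFNγ and 194, 299.9 and 352 with IFNα (95% interval -1.89 to 1.16). *Ifngr1*, *Ifnar1*, *Jak2* and *Tyk2* had differences between -0.04 and 0.09, with intervals inside 2-fold. *Jak1* (0.42), *Stat6* (0.64), *Stat5a* (0.50), *Stat5b* (-0.09) and *Ifngr2* (-1.24, limma adjusted p = 0.212) were not called.

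The SOCS proteins, which switch off cytokine receptors, were represented by 2 calls of 8, both higher with IFNγ. *Socs3* read 13463, 15524 and 12474 with IFNγ, against 4616, 4058 and 3297 with IFNα and 3602, 1956 and 2015 in mock cells (difference 1.80, SE 0.27), and all 3 of its probe sets were called. *Socs1* read 2051, 768 and 1169 with IFNγ and 289, 292 and 192 with IFNα (difference 2.28, SE 0.36), and lost the call without IFNα replicate 3 (limma adjusted p = 0.0123) and when only the 6 arrays were fitted (0.0583). *Cish* had a similar difference (2.06) but missed the threshold (limma adjusted p = 0.0166). *Socs2*, *Socs4*, *Socs5*, *Socs6* and *Socs7* differed by -0.13 to 0.50 and were not called. *Usp18* was the 1 gene called, as lower, of 5 genes of ISG15 conjugation, and of 9 other brakes on JAK-STAT signalling none was called. In the ISG15 list *Uba7*, *Ube2l6* and *Herc6* were near background with both IFNs, at mean log2 intensities of 3.12 to 3.67. Their missing calls therefore say little about a difference between the IFNs.

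Genes that respond to STAT3 in the acute response were mostly not called, with 3 of 14 higher with IFNγ. Besides *Socs3* these were *Osmr*, the receptor of oncostatin M, at 8926, 9960.5 and 8546 with IFNγ and 4320.1, 4110.3 and 4098 with IFNα (difference 1.13), and *Sbno2* (1.45). For *Osmr*, 1 of 3 probe sets was called higher. With the mean over all probe sets of a gene, 1 member of this list was higher and 1 lower. None of 11 NF-κB genes and none of 8 housekeeping genes was called, nor any of the 14 fibroblast markers. Of 13 chemokines other than the ligands of CXCR3, 3 were higher with IFNγ, which were *Ccl11*, *Cx3cl1* (1.66) and *Cxcl12* (1.35). *Sbno2* and *Cx3cl1* lost the call when only the 6 arrays were fitted (limma adjusted p = 0.0333 and 0.0253). *Ccl7* was not called (difference 0.58).

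Of 11 cell death genes tested, 3 were higher and 1 lower with IFNγ. *Casp4*, the sensor caspase of bacterial lipopolysaccharide, read 422, 452 and 404 with IFNγ, against 154, 174 and 158 with IFNα (difference 1.40). The death receptor gene *Fas* (1.29) and the necroptosis kinase gene *Ripk3* (1.70) were likewise higher. *Xaf1*, an antagonist of inhibitors of apoptosis, was lower with IFNγ, at 134, 150.0 and 114, against 738, 631 and 647 with IFNα. Of 5 metabolic effectors of IFNγ tested, of 9 with a probe set, 3 were higher. They were *Sod2*, which encodes the mitochondrial superoxide dismutase (1.97), *Wars*, which encodes tryptophanyl-tRNA synthetase (1.44), and the uridine phosphorylase gene *Upp1* (1.64). This list was drawn up for IFNγ, so it is not independent evidence of the direction. The filter took the highest value on any array, so a member could also enter through the IFNγ arrays. *Ripk3* and *Upp1* lost the call when only the 6 arrays were fitted (limma adjusted p = 0.0176 and 0.0126). Of 8 adhesion and checkpoint molecules tested, 1 was called. *Cd274*, which encodes the checkpoint ligand PD-L1, read 319.8, 274 and 326 with IFNγ, against 74.2, 85.9 and 68 with IFNα and 10.2, 9 and 6.9 in mock cells (difference 2.01, SE 0.14).

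A different class of low values came from genes that were lower with IFNγ than in mock cells. Of 19 genes that the study chose as repressed by IFNγ, 8 were lower with IFNγ than with IFNα and 0 higher, with a median of -1.20. Because that list was chosen for its response to IFNγ, it is not independent evidence of the direction. *Id4*, an inhibitor of bHLH transcription factors, read 1232, 978 and 854 with IFNγ, against 3330.2, 2884 and 2563 with IFNα and 3349, 3777 and 2839.5 in mock cells (difference -1.53, SE 0.18), a call lost when only the 6 arrays were fitted (limma adjusted p = 0.0144). *Bnc1*, a zinc finger gene, read 1253, 1233 and 1252 with IFNγ, against 3268, 3249.6 and 3016 with IFNα and 3511, 3786 and 3124 in mock cells (difference -1.35, SE 0.14). IFNα values of both genes overlapped the mock values.

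**Figure D3:**
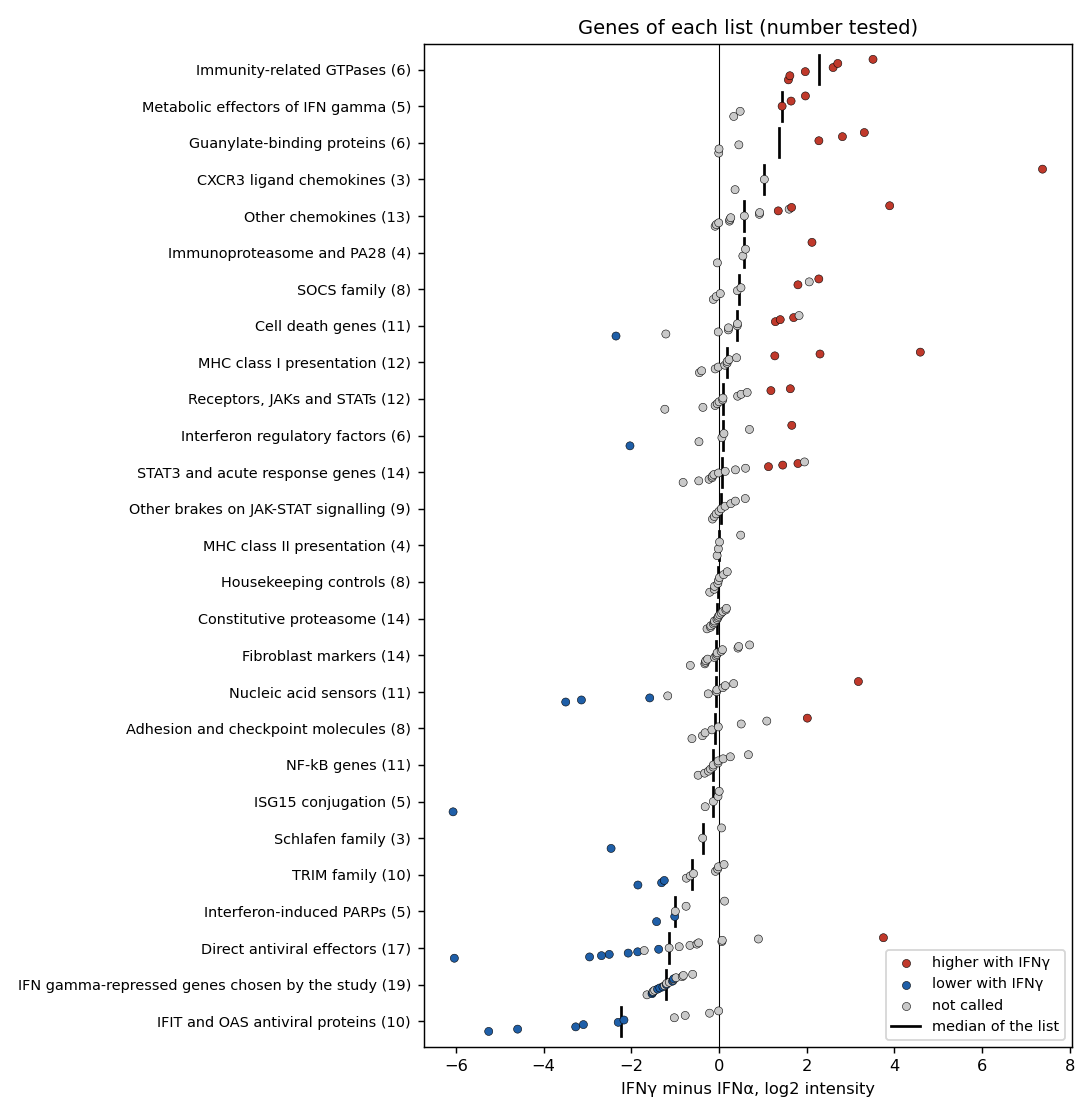
Difference IFNγ minus IFNα (log2 intensity) of each gene of 27 lists, ordered by the median of the list (black bar); red genes were called higher and blue genes lower with IFNγ, and grey genes were not called. Immunity-related GTPases have the highest median (2.28) and IFIT and OAS genes the lowest (-2.23).

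To describe genes that respond to IFN, probe sets were taken by the mean of both IFNs against mock, a contrast orthogonal to the difference between the IFNs in this balanced design. Raised probe sets numbered 216 (138 genes), 0.778% of those tested. Of these, 114 (52.8%) were higher with IFNγ, 45 (20.8%) were lower and 57 were not called; the median difference was 1.32. A large response to 1 IFN alone carries a probe set through this mean, so that these shares are partly fixed by the choice. *Nlrc5* and *Ccl11* passed in this way, with no called difference between IFNα and mock. Of the 216, 105 were called above mock with IFNγ only, and 94 of these were higher with IFNγ. With IFNα only, 31 were called above mock, of which 26 were lower with IFNγ. Both IFNs were called above mock for 77, of which 20 were higher with IFNγ, 19 lower and 38 not called. The remaining 3 were called against mock with neither. For 32 of the 57 raised probe sets not called between the IFNs the whole 95% interval lay within 2-fold, so that only these had no 2-fold difference inside the interval. Lowered probe sets numbered 24, 0.0864% of those tested, of which 0 were higher with IFNγ and 4 lower.

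The arrays with CHX repeat the comparison in other samples, in which protein synthesis was blocked. With CHX, 482 of all probe sets were higher with IFNγ than with IFNα (1.74%) and 331 lower (1.19%). Of the 305 probe sets higher without CHX, 241 (79.0%) were also called higher with CHX and 0 lower. Of the 104 lower without CHX, 82 (78.8%) were also called lower and 0 higher. The median difference of the higher probe sets was 1.70 with CHX and 1.67 without, and that of the lower ones was -2.0 with CHX and -1.53 without.

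Whether the difference between the IFNs changed with CHX was tested as an interaction, and 63 probe sets (0.227%) passed an adjusted p of 0.01. The difference was further from 0 with CHX for 51 of them and nearer to 0 for 12. By sign, IFNγ minus IFNα was larger with CHX for 24 and smaller for 39. Several antiviral genes lay further on the IFNα side with CHX. *Rsad2* differed by -5.78 with CHX and -2.95 without (limma adjusted p of the interaction = 3.87e-06). *Oasl1* differed by -5.88 with CHX and -3.09 without (0.00103). *Mx2* differed by -7.76 with CHX and -6.03 without (2.99e-06). *Usp18* and *Ifit1* kept differences of -6.13 and -5.49 with CHX, and their interactions were not called. In the IFIT and OAS list 9 of 10 members were called lower with CHX, and in the TRIM list 6 of 10. Over all probe sets, calls lower with IFNγ also rose, from 104 without CHX to 331 with it. Such counts do not test a change with CHX. No TRIM member had a called interaction (lowest limma adjusted p = 0.0101, *Trim56*).

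The differences of several GTPase genes were smaller with CHX. Only 2 of 6 immunity-related GTPases were called higher with CHX, and their median difference was 0.63. *Iigp1* read 2652, 2882 and 3959 with IFNγ and CHX, against 1300.5, 1238 and 882 with IFNα and CHX (difference 1.47, interaction adjusted p in limma = 0.00082). *Gbp2* read 1670.0, 1938 and 1255 with IFNγ and CHX, against 1212, 1121 and 892 with IFNα and CHX (difference 0.58, interaction 0.00148). *Cd274* changed sign, at 118, 121 and 119 with IFNγ and CHX, against 203, 231 and 208 with IFNα and CHX (difference -0.84, less than 2-fold, interaction 2.99e-06). *Ccl11* differed by 0.76 with CHX (interaction 5.06e-05). The probe sets of *Cxcl9* disagreed, since the brighter differed less with CHX (4.20) and the other more (6.30), both with a called interaction. Other genes on the IFNγ side, picked after their values were seen, differed more with CHX. *Serpinb1a*, which encodes an inhibitor of neutrophil proteases, differed by 6.90 with CHX and 2.28 without (interaction 2.62e-05). Without CHX its mean log2 intensity was 4.87 with IFNγ and 2.59 with IFNα, the latter near background, so these sizes depend on the background estimate. *Smoc1* (4.64 with CHX and 2.27 without) and *Nnmt* (3.54 with CHX and 2.01 without) also differed more with CHX, and 1 probe set of *Lrrtm2* differed by 2.71 more with CHX.

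**Figure D4:**
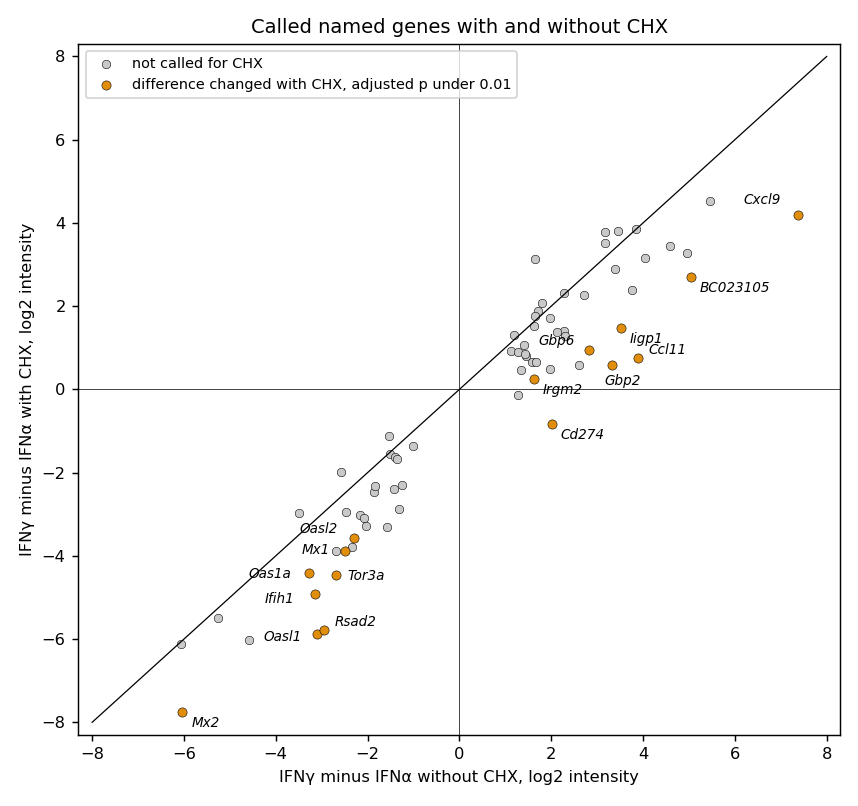
Difference IFNγ minus IFNα (log2 intensity) with CHX (vertical axis) against the same difference without CHX (horizontal axis) for the called named genes, with the line of equality; orange genes had a called interaction. Antiviral genes such as *Rsad2* and *Mx2* lie below the line on the IFNα side, and *Cd274* is the orange gene whose sign differs.

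*Nod1* (3.85 with CHX), *Stat3* (1.52), *Socs3* (2.09) and *Tifa* (4.54) were called with CHX as well, each without a called interaction. A p that misses the threshold does not show that CHX left them alike. *Icam1*, an adhesion molecule for leukocytes, was not called without CHX (1.09, limma adjusted p = 0.021) but differed by 5.48 with CHX, and its interaction was called (9.09e-06). Without CHX *Icam1* was near background, at mean log2 intensities of 3.48 with IFNγ and 2.39 with IFNα. The sizes of that difference and of the interaction therefore depend on the background estimate.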

How the data were processed

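Newly transcribed RNA was measured on Affymetrix MG 430 2.0 arrays. The authors deposited a table of linear intensity per probe set, made by gc-RMA in Expression Console, and background correction and normalization by the authors set its low values. The log2 values were taken here from the deposited intensities. Of 45037 probe sets after removal of controls, the 27773 with the highest maximum over 18 arrays were kept (lowest maximum 8.5). Array medians lay between 9.6 and 10.8. Precision is limited by having 3 arrays a group.

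One limma model (limma 3.58.1, R 4.3.3) of 6 treatments was fitted to 18 arrays and tested on simulated data. Calls needed an adjusted p under 0.01 and 2-fold; the interaction needed the adjusted p alone. Intervals are 95% and unadjusted. Named genes were the 15 largest called differences each way, up to 4 called members a list with the largest difference, the 3 nearest 0 among responsive members, and all IRF, receptor, JAK, STAT, SOCS and CXCR3 ligand genes. *Icam1*, *Serpinb1a*, *Smoc1*, *Nnmt*, *Lrrtm2* and the members of closing gene groups were chosen after their values were seen. Members and lists were chosen with earlier results of these data known. Alternatives were the pseudocount, filter, arrays fitted, normalization, replicate block, limma settings, fold minimum and each replicate left out. Gene symbols come from the platform annotation, with a single symbol for 34945 probe sets, several for 932 and none for 9160. Some genes are not reported here.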

Additional observations from a re-analysis of the deposited data

Results flagged for a closer look

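For 17 named genes the difference between the IFNs was not the same with and without CHX, by the limma test of the interaction (adjusted p under 0.01), which 63 of all probe sets passed. Values here are the difference IFNγ minus IFNα with CHX minus the same difference without CHX, on the log2 scale. Among genes higher with IFNγ without CHX, the value was -3.18 for *Cxcl9*, -3.13 for *Ccl11*, -2.85 for *Cd274* and -2.73 for *Gbp2*. It was -2.34 for *BC023105*, -2.04 for *Iigp1*, -1.88 for *Gbp6* and -1.37 for *Irgm2*. The other probe set of *Cxcl9* gave 5.34, of the opposite sign. Among genes lower with IFNγ, it was -2.82 for *Rsad2*, -2.79 for *Oasl1*, -1.78 for *Ifih1* and -1.77 for *Tor3a*. It was -1.73 for *Mx2*, -1.37 for *Mx1*, -1.28 for *Oasl2* and -1.14 for *Oas1a*. *Tapbp*, a chaperone gene of MHC class I loading that was not called without CHX, gave -1.23. Several of these genes were near background with 1 of the IFNs, and the part of the background in these values was not tested.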

How the results depend on the processing

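The counts of 305 probe sets higher and 104 lower with IFNγ than with IFNα changed by more than 1.5 times in the fit of the 6 arrays alone, with 176 higher and 45 lower. Leaving out 1 array gave 242 to 289 higher and 69 to 95 lower. The lowest of the lower counts, 69 without IFNα replicate 2, also differed from 104 by slightly more than 1.5 times. Other settings gave 257 to 395 higher and 77 to 145 lower, and IFN-responsive probe sets that differed numbered 163, with 138 to 153 when 1 array was left out. The count of 63 interactions was 39 among probe sets reaching 64, 32 with the 12 arrays of both IFNs alone, and 42 to 49 when 1 array was left out. With the replicate number as a block, 366 were higher and 145 lower, and 90 interactions were called. Same-numbered arrays of the IFNs correlated at 0.542, -0.143 and 0.763 in their deviations from group means. Differently numbered arrays correlated at -0.697 to 0.402. The labels do not say that the numbers pair samples, and the main fit used no block. An effect shared by arrays of the same number was not excluded. Of 71 named genes called, 51 were called in every setting in which they were tested, 10 lost the call when 1 array was left out, 19 with the 6 arrays alone, and 0 changed sign. List counts moved both ways when all probe sets of a gene were averaged. Sensors then had 2 members lower and other chemokines 2 higher. The IFIT and OAS list had 7 lower, and the SOCS family 3 higher. Low signal limits folds near background. On the log2(value + 16) scale 4 named genes lost the call.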

Other observations

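Some gene groups outside the lists were picked after their values were seen and are given as description. Of 6 genes of the HoxD cluster tested, which encode transcription factors of body patterning or lie between them, 3 were higher with IFNγ and 0 lower. *Hoxd3* averaged 204 with IFNγ and 18.7 with IFNα, *Hoxd8* averaged 2270 with IFNγ and 629 with IFNα, and *Hoxd9* averaged 586 with IFNγ and 190 with IFNα (limma adjusted p at most 0.000221). Of 4 receptor genes of the IL-6 family tested, 3 were higher. *Il6st*, which encodes the shared subunit gp130, averaged 2900 with IFNγ and 1180 with IFNα, *Lifr* averaged 308 with IFNγ and 94.0 with IFNα, and *Il6ra* was not called at 53.1 with IFNγ and 81.4 with IFNα. For *Il6st*, 1 of 4 probe sets was called, and for *Osmr*, the remaining higher gene of this group, 1 of 3. Of 4 STEAP metalloreductase genes tested, 3 were higher. *Steap1* averaged 3530 with IFNγ and 1350 with IFNα, *Steap2* was called with 2 of 5 probe sets, and *Steap4* averaged 38.0 with IFNγ and 12.5 with IFNα.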
